A study of Mus musculus with 24 samples.

Results

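Heart and lung were compared by RNA sequencing, each with 3 libraries, in SENCR-BAC mice, in which an artificial chromosome brings in the human locus of SENCR, a non-coding RNA transcribed antisense to FLI1. The 6 libraries were taken by their tissue label from 24 libraries of 8 tissues, the others being aorta, brain, kidney, liver, spleen and stomach. Both tissues came from SENCR-BAC animals by their titles, and no group without the transgene, no strain, age, sex or treatment is named in the labels. The library names begin with SR-KI instead, and what that code stands for was not established here. The sources used here describe biological triplicates and do not say which libraries share an animal, so p-values measure the spread between these libraries, which may be technical. Values were FPKM, fragment counts scaled by gene length and by library depth, for 7493 genes with human symbols, because the mouse libraries were counted on a human build. A gene's value therefore depends on how much of its sequence mouse and human share, and levels were compared between tissues within a gene, not between genes.

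Heart wall consists mainly of cardiac muscle. Its cells shorten when myosin heavy chain pulls on thin filaments of cardiac actin and tropomyosin, under the control of calcium and the troponin complex, and mitochondria supply the ATP by oxidizing fatty acids and pyruvate. Lung is built of airway and alveolar epithelium, which arises from foregut endoderm marked by the transcription factor NKX2-1, and of capillary endothelium, mesenchyme and resident leukocytes. Skeletal muscle uses its own fast myosins, calcium pump and actin gene, while the contractile genes of smooth muscle belong to airways and vessels. In mice, cardiac muscle also extends from the left atrium along the pulmonary veins into the lung.

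The region upstream of some of these genes is shown because muscle promoters are known for short recognition motifs. Muscle genes did not all move together: most cardiac contractile genes tested were higher in heart, and several skeletal muscle genes higher in lung. The 250 bases before the start site were read from RefSeq on GRCm38.p6 for a cardiac gene pair, a skeletal myosin found in lung and the marker of lung epithelium. Actc1 (cardiac actin) lies at chr2:114052876-114053125 on the minus strand, Myh6 (alpha myosin heavy chain) at chr14:54966608-54966857 on the minus strand, Myh4 (a fast skeletal myosin) at chr11:67237562-67237811 on the plus strand and Nkx2-1 at chr12:56536909-56537158 on the minus strand. Capitals mark matches on either strand to the CArG box bound by SRF, the MEF2 site, the M-CAT element CATTCC bound by TEAD factors, or TATAAA of core promoters.
Actc1: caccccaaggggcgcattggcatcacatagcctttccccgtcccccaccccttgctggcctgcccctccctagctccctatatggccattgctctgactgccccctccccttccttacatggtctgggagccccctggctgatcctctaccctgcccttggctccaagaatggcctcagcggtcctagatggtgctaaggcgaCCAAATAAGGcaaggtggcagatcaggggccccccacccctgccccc
Myh6: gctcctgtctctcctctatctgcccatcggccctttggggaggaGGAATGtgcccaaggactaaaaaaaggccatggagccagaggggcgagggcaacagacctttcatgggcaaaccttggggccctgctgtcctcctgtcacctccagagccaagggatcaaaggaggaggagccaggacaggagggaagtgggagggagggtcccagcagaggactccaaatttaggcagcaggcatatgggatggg
Myh4: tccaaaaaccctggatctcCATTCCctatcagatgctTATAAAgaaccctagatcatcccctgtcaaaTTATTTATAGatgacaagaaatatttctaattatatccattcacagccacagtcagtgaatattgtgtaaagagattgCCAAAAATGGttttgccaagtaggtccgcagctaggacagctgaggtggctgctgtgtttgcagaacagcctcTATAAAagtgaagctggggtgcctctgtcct
Nkx2-1: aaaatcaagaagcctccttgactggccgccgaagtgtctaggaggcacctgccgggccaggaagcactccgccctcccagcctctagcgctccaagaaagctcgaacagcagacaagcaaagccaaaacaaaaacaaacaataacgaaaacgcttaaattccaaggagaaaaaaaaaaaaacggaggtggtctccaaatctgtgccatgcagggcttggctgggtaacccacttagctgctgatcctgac
The Actc1 window held a CArG box from 47 to 38 bases before the start site, and the Myh6 window an M-CAT from 206 to 201 bases before it. The Myh4 window held a CArG box from 104 to 95 bases before the start site, a MEF2 site from 182 to 173 that overlaps a TATAAA match, an M-CAT and 2 further TATAAA matches. None of the 4 letter patterns was found in the Nkx2-1 window. Windows of Tpm1, Tnnc1, Ckmt2 and Myh13 were also read and are not printed. Tpm1 held an M-CAT from 56 to 51 bases before the start site, and Tnnc1 held one from 58 to 53. Neither the Ckmt2 nor the Myh13 window held any of the patterns. The CArG box was present in 4 of 24 promoters of 19 matched cardiac contractile genes (16.7%), in 2 of 21 promoters of 18 matched skeletal muscle genes (9.52%) and in 1.47% of all 32851 promoters. M-CAT was present in 37.5%, 19.0% and 12.6% of these windows, the MEF2 site in 8.33%, 19.0% and 2.92%, and TATAAA in 4.17%, 28.6% and 12.4%. A match is a description of letters and was not tested as a binding site.

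Assigned reads, worked out from what 1 read adds to a gene's FPKM, ran from 350842 to 360456 in heart and from 461450 to 496563 in lung. A few genes filled much of the heart libraries, and the contractile genes described below took 22.9% to 24.7% of heart reads and 0.511% to 0.801% of lung reads. The 10 most abundant genes took 37.7% to 40.7% of heart reads against 17.3% to 18.0% of lung reads, and TPM1 alone took 11.9% to 13.3% against 0.327% to 0.595%. Between 3107 and 3245 genes were above 0 in a heart library and between 3677 and 4205 in a lung library. Tests covered 4260 genes that reached 1 FPKM in 3 or more of the 24 libraries. A gene was called where limma's adjusted p was below 0.05 and tissue means on the log2(FPKM + 1) scale were 1 or more apart. By that rule 245 genes (5.75%) were higher in heart and 1012 (23.8%) higher in lung. Without overlap between the libraries, 381 genes (8.94%) were higher in heart and 1515 (35.6%) in lung. The median difference of all genes was -0.48, heart minus lung. That lean depended on the scaling. Median-ratio scaling gave 415 and 500 genes with a median of -0.12, and quantile normalization gave 427 and 448 with a median of -0.02. Differences are therefore to be read against the median of all genes, and for most lists whose count moved under these scalings the other counts are given.

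**Figure D1:**
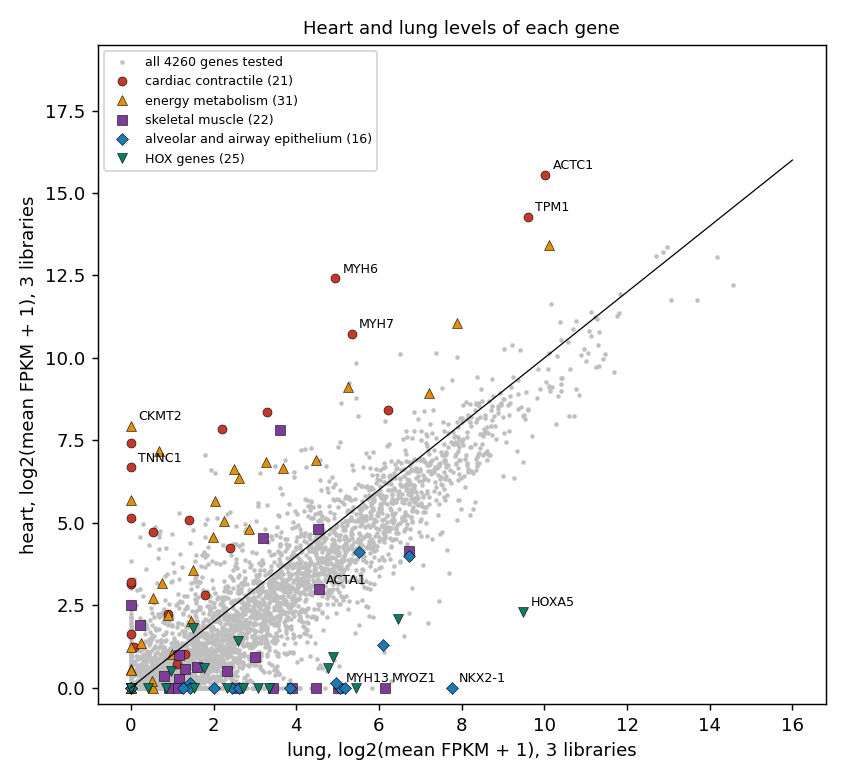
Mean level of each of 4260 genes in heart (vertical axis) and lung (horizontal axis), both as log2(mean FPKM + 1) over 3 libraries, with gene lists in colour and a line of equal levels. Cardiac contractile and energy metabolism genes lie mostly above the line, while NKX2-1, HOXA5, MYOZ1 and MYH13 lie on or near the lung axis.

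The contractile apparatus separated the tissues in favour of heart. Of 44 cardiac contractile genes listed, 24 were in the table and 21 passed the filter; 19 of the 21 were higher in heart and none was higher in lung, with a median difference of 3.70 and with 18 of the 21 not overlapping between tissues, against 5.75% called and 8.94% not overlapping among all genes. The filter admitted 9 of the 21 through heart alone, and such genes had to differ. With a tissue that had no read set to the value of 3 reads, the median log2 ratio was 4.40, against -0.54 for all genes.

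ACTC1, the cardiac actin of the thin filament, was at 42103, 50310.1 and 52649 FPKM in the heart libraries and at 1192, 909 and 1013 in the lung libraries (difference 5.54 ± 0.50 SE, limma adjusted p = 3.31e-08). TPM1, the tropomyosin that lies along that filament, was at 18870.5, 21041 and 19718 FPKM in heart and 862, 516 and 940.0 in lung (4.73 ± 0.22 SE, limma adjusted p = 3.31e-12). The tissues did not overlap for either gene, and the heart libraries of each lay close together. MYH6, the fast alpha myosin heavy chain of adult mouse heart, was at 5955, 4798 and 5630.4 FPKM in heart and 42.0, 12.9 and 34.3 in lung (7.62 ± 0.36 SE, limma adjusted p = 3.50e-12). MYH7, the slower beta chain, was at 1913, 1487 and 1726 FPKM in heart and 44.5, 44.0 and 30.6 in lung (5.41 ± 0.26 SE, limma adjusted p = 5.75e-12). Every heart library lay far above every lung library for both chains, and lung replicate 2 was the lowest for MYH6. MYH6 and MYH7 are close paralogs, as are the actins and the tropomyosins, so the split of reads within each family is uncertain on another species' genome.

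Z-disc and calcium-switch genes followed. LDB3, a Z-disc adaptor, was at 309, 307 and 377 FPKM in heart and 6.97, 4.32 and 14.95 in lung, and ACTN2, the actin cross-linker of the Z-disc, at 195, 250.1 and 243 in heart and 5.98, 1.59 and 3.28 in lung. TNNC1, the calcium-binding troponin subunit, was at 85.8, 113 and 108 FPKM in heart with no read in lung, at least 33.7-fold higher against the value of 3 reads over the lung libraries. MHRT, a non-coding RNA of the myosin heavy chain locus whose reads cannot be told from the overlapping gene without strand, was at 173, 149 and 189 FPKM in heart and had no lung read (at least 71.6-fold). These 4 genes did not overlap between tissues, and the lung level was uneven, lowest in replicate 2 for LDB3 and ACTN2. CSRP3, a muscle LIM protein, was at least 21.2-fold higher in heart, the thick-filament protein gene MYBPC3 at least 16.7-fold, troponin I gene TNNI3 at least 3.15-fold and the stress-responsive ANKRD1 at least 1.80-fold, all without a lung read. TNNT2, the troponin subunit that holds tropomyosin, was at 7.29, 41.4 and 27.7 FPKM in heart and had 1 read in lung.

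The rest of the list held structural and chaperone genes. TTN, the giant spring of the sarcomere, was at 1.15, 1.23 and 1.63 FPKM in heart and 0.0185, 0.103 and 0.0355 in lung, and NEXN, an actin-binding Z-disc protein gene, at 30.4, 32.4 and 36.1 in heart and 1.87, 1.24 and 1.79 in lung. DES, the gene of the intermediate filament desmin, was at 13.8, 16.1 and 24.1 FPKM in heart and 2.90, 7.18 and 2.78 in lung, and CRYAB, a small heat shock chaperone of muscle, at 247, 347 and 439 in heart and 45.6, 105 and 67.8 in lung. The tissues did not overlap for these 4 genes, and lung replicate 2 was the highest lung library for DES and CRYAB. DES (1.91, limma adjusted p = 0.000521) and CRYAB (2.26, limma adjusted p = 0.00968), were higher in heart with lung at 23.8% and 21.2% of the heart mean. The call of CRYAB ended under TPM scaling (limma adjusted p = 0.0581) and with a pseudocount of 0.1 (0.172). PDLIM5 (limma adjusted p = 0.0168) and the myosin chaperone UNC45B (limma adjusted p = 0.0295) were called by small margins. PDLIM5 was lost without heart replicate 2 (0.0628), heart replicate 3 (0.0648) or lung replicate 1 (0.105), and UNC45B without heart replicate 1 (0.178), heart replicate 3 (0.0612) or lung replicate 2 (0.216). Heart and lung libraries overlapped for UNC45B. Neither PDLIM3 nor MYL7, the atrial light chain, was called: MYL7 had 1 read in heart and 2 in lung. Both were called higher in lung without heart replicate 3, with differences of -1.09 and -1.13, and MYL7 also without lung replicate 3 (-1.02). Of the atrial and ventricular markers, 4 of 15 were in the table, so atrial and ventricular parts of the heart samples could not be compared.

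Ion channels and calcium handling were also mostly a heart signal. Of 51 such genes listed, 35 were in the table and 22 passed the filter, 14 higher in heart, 1 higher in lung and 7 not called, with a median difference of 2.28, where 5.75% of all genes were called higher in heart. The count higher in heart was 16 under both median-ratio scaling and quantile normalization. The filter admitted 3 of the 22 through heart alone. RYR2, the calcium release channel of the sarcoplasmic reticulum, was at 24.5, 17.3 and 26.0 FPKM in heart and 0.130, 0.363 and 0 in lung (4.33 ± 0.26 SE, limma adjusted p = 1.02e-10). KCNJ3, a subunit of the acetylcholine-gated potassium channel, was at 112, 72.1 and 83.6 FPKM in heart and 4.99, 3.38 and 0.870 in lung, without overlap. ATP2A2, the calcium pump that refills the reticulum, was at 19.6, 24.4 and 42.3 FPKM in heart and 3.13, 8.25 and 3.00 in lung, and KCNK3, a background potassium channel, at 177, 115 and 144 in heart and 16.3, 15.4 and 17.6 in lung. The voltage-gated calcium channel genes went opposite ways. CACNA1C, the L-type channel of ventricular muscle, was at 39.1, 23.2 and 38.3 FPKM in heart and 1.99, 3.57 and 2.16 in lung (3.26 ± 0.31 SE, limma adjusted p = 6.77e-08), whereas CACNA1D, its relative of pacemaker and endocrine cells, was at 1.51, 0.249 and 0.768 in heart and 17.5, 16.1 and 15.5 in lung (-3.29 ± 0.37 SE, limma adjusted p = 6.54e-07). The tissues did not overlap for either. The adhesion molecule CDH2 of the intercalated disc was higher in heart by 3.87 and the sodium channel modulator FGF13 by 3.89 (limma adjusted p of 1.46e-07 and 1.50e-09).

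Energy metabolism was the third heart signal. Of 83 nuclear genes of oxidative phosphorylation and energy metabolism listed, 54 were in the table and 31 passed the filter, with 17 higher in heart, none higher in lung and a median difference of 2.00, against 5.75% of all genes higher in heart. The count higher in heart was 20 under median-ratio scaling and 21 under quantile normalization. The filter admitted 2 of the 31 through heart alone. CKMT2, the mitochondrial creatine kinase of striated muscle, was at 195, 248 and 293 FPKM in heart and had no read in lung, at least 194-fold higher (7.92 ± 0.18 SE, limma adjusted p = 9.87e-18). HADHB, a subunit of the enzyme that shortens long fatty acids, was at 120.1, 152 and 157 FPKM in heart and 0, 0.888 and 0.915 in lung, where it had 2 reads. Both genes were near or at 0 in lung and abundant in each heart library. ATP5F1B, the catalytic beta subunit of ATP synthase, was at 1977, 2154 and 2272 FPKM in heart and 199.6, 245 and 266 in lung, and ATP5MC3, a subunit of its membrane ring, at 9579, 12671 and 10884 in heart and 1127, 1082 and 1096 in lung. OGDH, an enzyme of the citric acid cycle, was at 585, 468 and 622 FPKM in heart and 52.3, 28.6 and 30.3 in lung. For these 3 genes the groups did not overlap, and lung held 11.1%, 9.98% and 6.64% of the heart mean. NDUFS1 of complex I was higher in heart by 3.58 (limma adjusted p = 2.21e-11), the ATP and ADP exchanger SLC25A4 by 4.30 (2.43e-07) and ATP5MC1 by 5.69 (9.46e-05), the last without a lung read (at least 15.7-fold). The porin VDAC3 differed less, by 1.75 (limma adjusted p = 2.10e-06). Of 11 tested genes encoded by mitochondrial DNA none was called; none had an unadjusted p under 0.05 and voom on recovered reads called none. The 13 such genes in the table had 7 to 11 reads per heart library and 2 to 10 per lung library together, so differences were not detectable at this depth. Apart from the lists, FRMD5, a cell adhesion gene, and FGF16, a cardiac growth factor, stood among the 12 largest differences in heart, at 132 ± 13.3 against 2.44 ± 1.56 FPKM and 95.7 ± 15.2 against 2.85 ± 3.04 (mean ± SD, n = 3).

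Cardiac transcription factors were called in both directions, and GATA4, a defining factor of heart muscle, was listed at 0 in all 6 libraries, as was the gap junction gene GJA1. Of 34 listed, 25 were in the table and 20 passed the filter, 6 higher in heart, 4 higher in lung and 10 not called, with a median difference of -0.05, where 5.75% of all genes were called higher in heart and 23.8% higher in lung. Median-ratio scaling gave 8 higher in heart and 2 in lung, and quantile normalization 8 and 1. The count in lung was 2 without heart replicate 2 or heart replicate 3, and 1 without lung replicate 2 or with a pseudocount of 5. HAND2, a helix-loop-helix factor of heart development, was at 27.3, 26.9 and 30.8 FPKM in heart and 0.779, 0.724 and 0 in lung, and PROX1, a homeobox factor of heart muscle and lymphatic endothelium, at 23.5, 22.6 and 32.0 in heart and 0.663, 0.616 and 0.635 in lung. ESRRA, a nuclear receptor that drives mitochondrial genes, was at 137, 149.7 and 185 FPKM in heart and 29.8, 30.6 and 32.7 in lung. The groups did not overlap for these 3 genes. ESRRG, its relative, was higher in heart by 3.53 (limma adjusted p = 2.39e-08) and the shared coactivator PPARGC1A by 3.69 (2.32e-06). SRF, MEF2A, MEF2C and TEAD1, genes of factors whose motifs are named above, were not called in the main fit. Their part in the contractile genes was not tested. SRF, which binds the CArG box, was at 289.5, 233 and 240.0 FPKM in heart and 141, 119.8 and 185 in lung (0.79 ± 0.18 SE), short of the minimum difference of 1, but passed it under median-ratio scaling (1.48) and quantile normalization (1.13). MEF2A was at 106, 95.7 and 85.9 FPKM in heart and 95.3, 111 and 116 in lung, overlapping, with a difference of -0.16 that became 0.53 and 0.29 under those scalings. MEF2C (0.28) and TEAD1, a factor of the M-CAT element (-0.74), were not called either. NR2F2, a nuclear receptor of atria, veins and mesenchyme, was higher in lung by 2.57 (difference -2.57, limma adjusted p = 2.99e-08). TBX3 had no heart read and was called higher in lung (-1.13, limma adjusted p = 0.00351), but not without lung replicate 2 (-0.88).

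**Figure D2:**
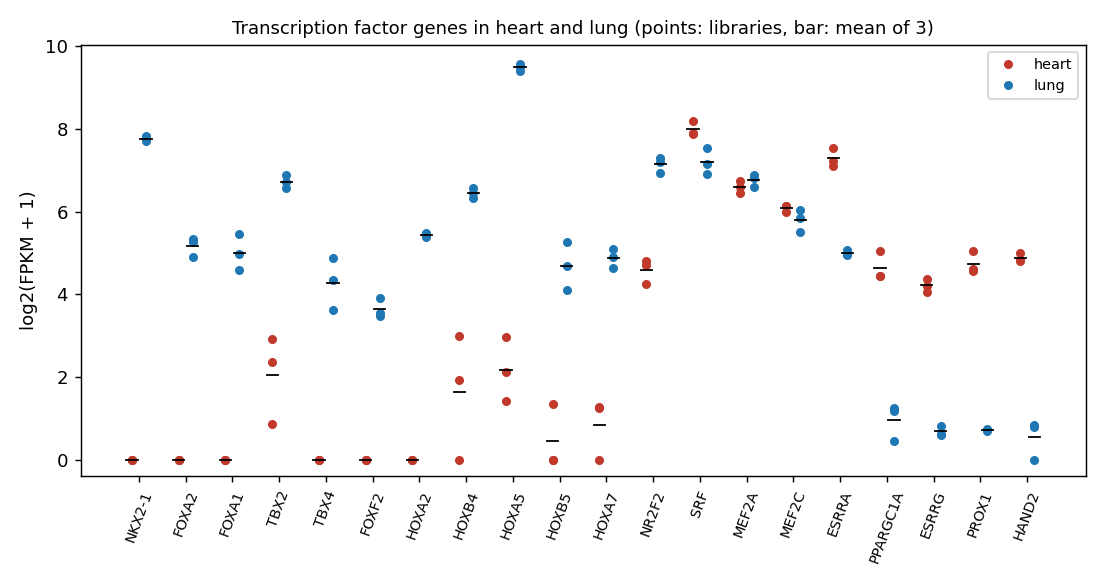
Levels of 20 transcription factor genes as log2(FPKM + 1), with a point for each library and a bar for the mean of 3 libraries, heart in red and lung in blue. NKX2-1, FOXA2, TBX4 and HOXA2 are at 0 in heart, SRF, MEF2A and MEF2C lie close together, and ESRRA, PROX1 and HAND2 are higher in heart.

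Lung held cardiac contractile genes at levels above those of brain, kidney, liver and spleen. Their summed level ran from 1608 to 2211 FPKM over the lung libraries, against 69934 to 81267 in heart and 25.0 to 132 in single brain, kidney, liver and spleen libraries. Stomach (1077 to 1447) and aorta (1032 to 1307) were nearer to lung, with most of the sum in TPM1, which smooth muscle also makes. Heart was the highest of the 8 tissues for 19 of the 21 genes, and lung was second for 10 of them. Of the 21, 9 were listed at 0 in all 12 brain, kidney, liver and spleen libraries. These counts were not computed for all genes. The filter admitted 9 of the 21 through heart alone and 1 through lung alone, which favours high heart ranks and low values in other tissues. Against the mean of those 4 tissues, lung was higher for 12 of the 21 and lower for none, at a median of 1.13, where 563 of all genes (13.2%) were higher, 298 (7%) lower and the median was 0.08. The count of 12 was 11 under median-ratio scaling, 9 under quantile normalization and 6 with a pseudocount of 5.

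ACTC1 carried the clearest of these signals. It was at 0 in 11 of the 12 brain, kidney, liver and spleen libraries and at 3.73 FPKM in liver replicate 3, at 22.3, 45.7 and 13.4 in stomach and at 24.4, 40.4 and 94.3 in aorta. The lung values given above exceeded all of these, and the lung difference from the 4 tissues was 9.82 (limma adjusted p = 4.21e-13). MYH7 lung values had 345 reads behind them, against 0 to 0.80 FPKM in any library outside heart and lung, a difference of 5.28 from the 4 tissues (limma adjusted p = 4.21e-13), and MYH6 had 251 lung reads and differed by 4.63 (2.14e-10). Both chains stood above every library outside heart and lung. LDB3 (3.11, limma adjusted p = 8.48e-06), CRYAB (3.71, 9.61e-06), DES (1.99, 2.77e-05) and ACTN2 (1.77, 0.000245) were also higher in lung than in the 4 tissues. For these 4 genes some lung libraries overlapped stomach, aorta or brain libraries. NEXN was at 5.04, 2.00 and 5.05 FPKM in aorta, above lung, and every stomach and aorta library exceeded every lung library for TPM1.

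Relative to heart, the lung level was not the same for each gene. It was 0.544% of the heart mean for MYH6, 1.58% for ACTN2, 2.15% for ACTC1, 2.32% for MYH7, 2.64% for LDB3, 3.89% for TPM1, 4.94% for NEXN and 21.2% for CRYAB. TNNC1 and MHRT had no lung read, where 3 reads would have been 2.97% and 1.40% of the heart mean, so a share like that of ACTC1 was not detectable for TNNC1 and was detectable for MHRT. The ratio of MYH7 to MYH6 within a library was 32.1%, 31.0% and 30.7% in heart and 106%, 341% and 89.3% in lung. All lung ratios lay above all heart ratios, and lung replicate 2 was far above the others. The ratio of MYH6 to ACTC1 was 11.5% ± 2.40 in heart and 2.77% ± 1.18 in lung (SD, n = 3), and that of TPM1 to ACTC1 41.4% ± 3.71 and 74.0% ± 18.1. Each of these 3 ratios separated the tissues at the smallest p that an exact two-sided permutation test of 3 against 3 can give, 0.10, which became 0.167 after adjustment over 5 ratios. ACTN2 to ACTC1 (exact permutation p = 0.40) and LDB3 to ACTC1 (exact permutation p = 1) overlapped. In bulk tissue, fewer cells of a type and less RNA per cell cannot be told apart, and the source of the muscle reads in lung was not tested. Genes of the cardiac list were not checked for use by skeletal muscle. Whether their lung reads came from cardiac or skeletal muscle was therefore not tested either.

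**Figure D3:**
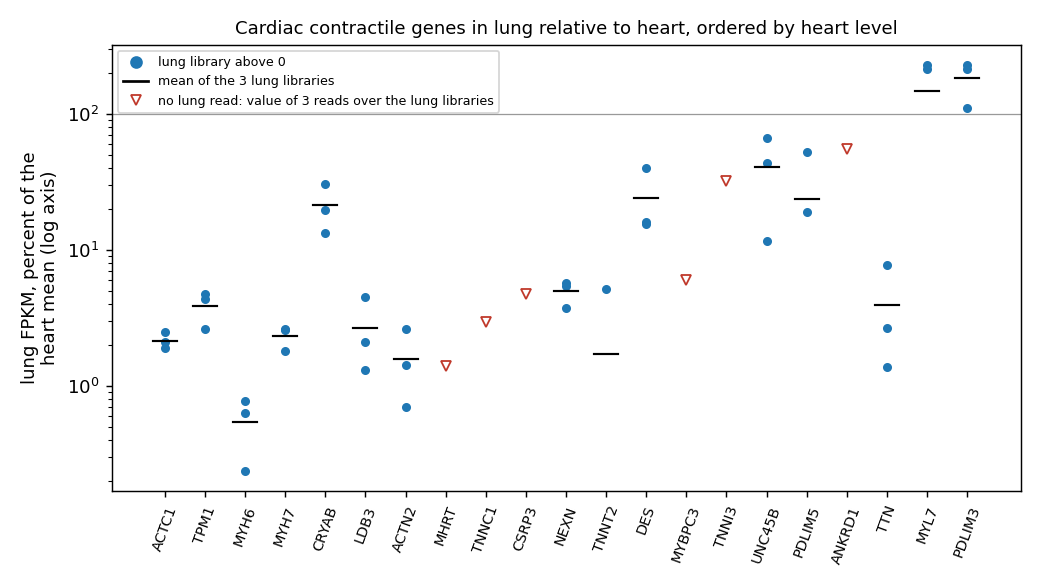
Lung level of each of the 21 tested cardiac contractile genes as a percent of its heart mean, on a log axis, ordered by heart level. Points are lung libraries above 0, bars are means of 3 lung libraries and triangles show what 3 reads would give for genes without a lung read; MYL7 and PDLIM3, with few reads, lie above 100%, and all other means lie between 0.544% and 40.4%.

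Skeletal muscle genes set lung apart in another way, since several had no heart read. Of 72 skeletal muscle genes listed, 39 were in the table and 22 passed the filter, 9 higher in lung, 4 higher in heart and 9 not called, with a median difference of -1.01, where 23.8% of all genes were called higher in lung. The filter admitted 7 of the 22 through lung alone and 2 through heart alone. With tissues without a read set to 3 reads, the median log2 ratio was -1.78. The count higher in lung was 9 under median-ratio scaling and 8 under quantile normalization. The list's summed level ran from 224.8 to 483 FPKM in lung and from 262 to 394 in heart, where ENO3 made up most of it.

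MYOZ1, a Z-disc protein of fast fibres, was at 53.3, 34.1 and 121 FPKM in lung and had no read in heart, at least 32.2-fold higher (-5.94 ± 0.74 SE, limma adjusted p = 2.18e-06). MYH13, the myosin of eye and laryngeal muscles, was at 49.2, 13.4 and 31.2 FPKM in lung with no heart read (at least 66.7-fold; -4.84 ± 0.81 SE, limma adjusted p = 7.30e-05). MYH4, the fastest myosin of limb muscle, was at 15.1, 7.16 and 42.1 in lung with no heart read (at least 49.3-fold; -4.16 ± 0.73 SE, limma adjusted p = 0.000135). All 3 genes were present in each lung library, and replicate 2 was the lowest for each. ATP2A1, the calcium pump of fast fibres, was at 14.1, 4.54 and 22.8 FPKM, the embryonic myosin gene MYH3 at 10.9, 5.91 and 12.9 and the fast myosin gene MYH1 at 10.1, 3.25 and 1.34, all without a heart read. These 6 genes together had 296, 121 and 378 reads in the lung libraries and none in heart. Of the 6, all but MYOZ1 passed the filter through lung alone. With no heart read they had to differ, so their p-values add no support. The myosin genes are near-identical neighbours, so reads of 1 of them could have been counted for another and the names of single myosins are uncertain.

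Those 6 genes were not found in lung alone. They had 41, 198 and 1 reads in the stomach libraries and 1, 2 and 6 in aorta. Stomach replicate 2 thus exceeded lung replicate 2, while stomach replicate 3 was almost empty, and all aorta reads were of MYOZ1. MYH13 was at 13.1, 48.2 and 0 FPKM in stomach and MYH4 at 6.34, 28.4 and 0, and both were at 0 in every aorta, brain, kidney, liver and spleen library. Of the 22 genes, lung was the highest of the 8 tissues for 9 and second for 9, and ranks were not computed for all genes. Against the mean of brain, kidney, liver and spleen, 15 of the 22 were higher in lung and none lower (median 2.11). Among all genes 13.2% were higher and 7% lower. Of the 22, 14 had every lung library above all 12 libraries of those tissues, as did 5.96% of all genes. The filter admitted 7 of the 22 through lung alone, which favours lung in each of these counts. The count of 15 ran from 14 to 16 when each heart or lung library was left out.

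Other skeletal muscle genes were present in both tissues. MYH2, the myosin of fast oxidative fibres, was at 17.9, 31.3 and 33.1 FPKM in heart and 21.6, 12.5 and 32.2 in lung, overlapping (limma adjusted p = 0.691), and was 4.36 above the 4 tissues in lung (limma adjusted p = 1.18e-07). ACTA1, skeletal actin, was at 5.65, 5.58 and 9.56 FPKM in heart and 7.27, 8.10 and 51.5 in lung, overlapping, with lung replicate 3 far above the others (limma adjusted p = 0.260). TPM3, the slow-fibre tropomyosin gene that many other cells use, was at 18.3, 16.1 and 15.8 FPKM in heart and 121, 103 and 93.4 in lung, without overlap (-2.58, limma adjusted p = 1.48e-09). TPM2, a tropomyosin of slow fibres and smooth muscle, was higher in lung (-1.85, limma adjusted p = 0.00806), and lost its call under quantile normalization (0.0624). The other 4 called genes went the other way. The muscle enolase ENO3 was at 181, 181 and 304 FPKM in heart and 5.14, 2.39 and 25.8 in lung (4.72 ± 0.85 SE, limma adjusted p = 0.000164). Its lung level was 2.30 above the 4 tissues (limma adjusted p = 0.00960), and 1.45 without lung replicate 3 (0.145). KLHL41, a sarcomere-assembly gene, was at 27.4, 19.2 and 20.9 FPKM in heart and 5.29, 2.46 and 16.9 in lung (1.67, limma adjusted p = 0.0113), and was not called without lung replicate 2 (1.13, 0.0900). Muscle glycogen phosphorylase PYGM (2.28) and the glycogen-targeting subunit PPP1R3A (1.71) were higher in heart (limma adjusted p of 2.65e-05 and 0.000172), and neither was called with a pseudocount of 5. CASQ1, SIX2, SIX4, TBX15, PITX1, CACNB1 and MSTN were not called, with differences from -1.09 (CACNB1) to -0.28 (MSTN). CASQ1 was called higher in lung without heart replicate 1 (-1.28), PITX1 (-1.49) and TBX15 (-1.20) without lung replicate 2, SIX2 without lung replicate 3 (-1.18) and CACNB1 without heart replicate 3 (-1.56). Markers of other tissues of the chest, among them thymus, thyroid, oesophagus, fat, nerve and mesothelium, summed to 9.42 to 24.2 FPKM in lung and 2.57 to 12.8 in heart over 18 of 50 listed genes. Their part in the muscle signal was not tested.

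**Figure D4:**
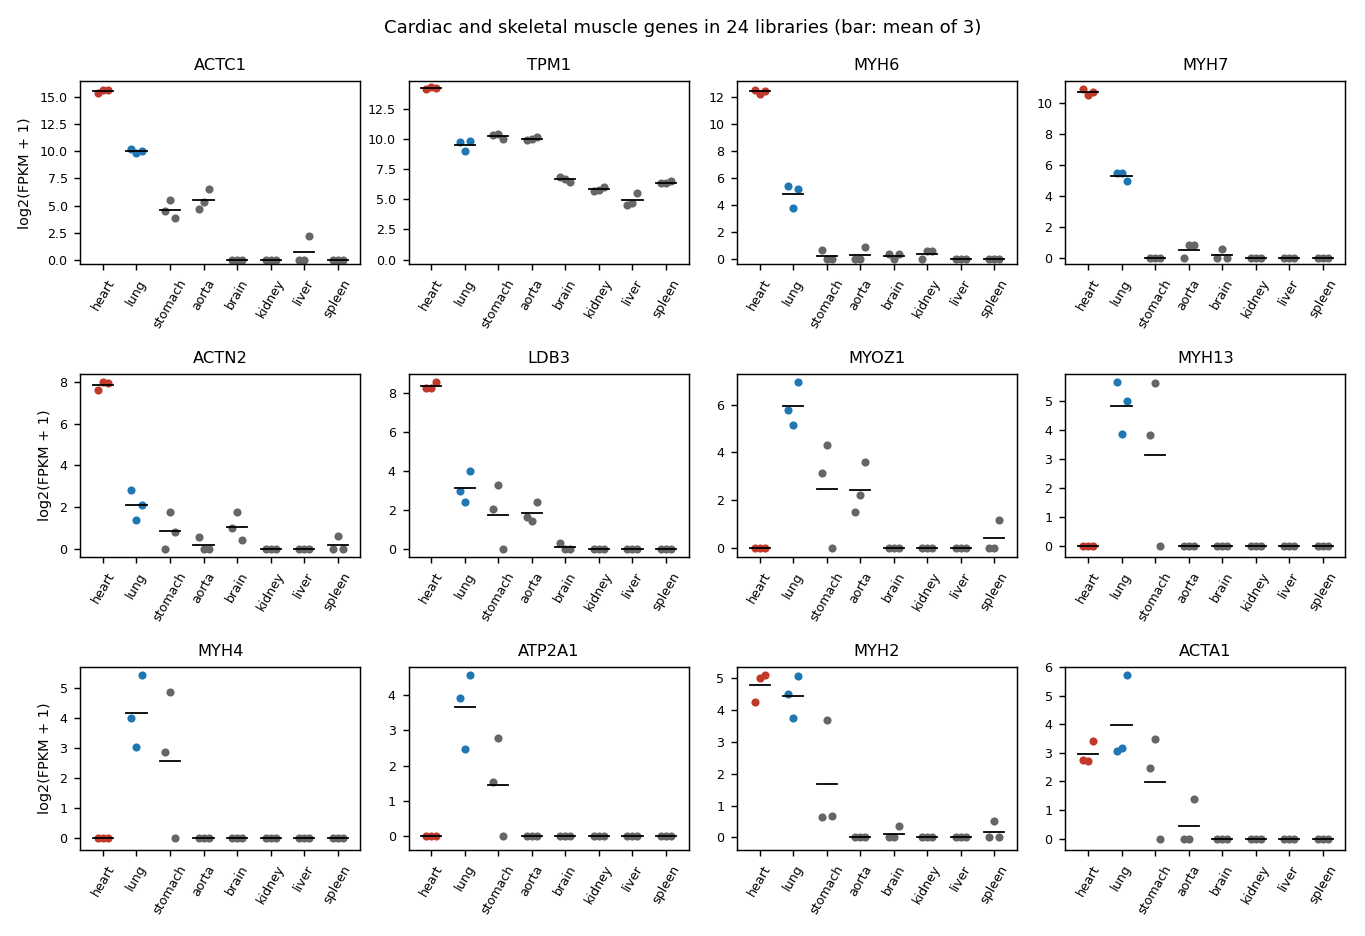
Level of 6 cardiac and 6 skeletal muscle genes as log2(FPKM + 1) in the 24 libraries by tissue, with a point per library and a bar for the mean of 3; heart is red, lung blue and other tissues grey. The lung mean lies between heart and the other tissues for ACTC1, MYH6, MYH7, ACTN2 and LDB3, and MYOZ1, MYH13, MYH4 and ATP2A1 are present in lung and in stomach replicates 1 and 2 and at 0 in heart.

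Epithelial genes set lung apart from heart. Of 69 alveolar and airway genes listed, 30 were in the table and 16 passed the filter, 14 higher in lung and none in heart, with a median difference of -2.43, where 23.8% of all genes were called higher in lung. The filter admitted 3 of the 16 through lung alone, and such genes had to differ. The count was 13 under median-ratio scaling, 10 under quantile normalization and 8 with a pseudocount of 5. The list's summed level was 528 to 584 FPKM in lung, 491 to 494 in aorta, 559 to 674 in liver and 506 to 576 in stomach. The surfactant genes are not described here and EPCAM was listed at 0 in all 6 libraries, so lung epithelium is described mainly through transcription factors. NKX2-1 was at 216, 207 and 225 FPKM in lung and had no read in heart, at least 183-fold higher (-7.76 ± 0.17 SE, limma adjusted p = 9.14e-18). FOXA2, a pioneer factor of endoderm, was at 29.1, 39.5 and 37.7 FPKM (at least 34.7-fold) and its relative FOXA1 at 42.9, 23.0 and 30.5 (at least 49.1-fold), again without a heart read. Each lung library held all 3 factors at a like level. CEBPA, a factor of type II cells and of liver, was at 0, 1.05 and 3.25 FPKM in heart and 61.8, 73.5 and 65.5 in lung (-5.04), and FGFR2, the receptor through which mesenchyme drives branching, differed by -4.80 (limma adjusted p = 1.13e-08). FOXP1 was at 15.8, 14.6 and 14.7 FPKM in heart and 115, 86.3 and 114 in lung (-2.72, limma adjusted p = 6.32e-08). FOXP2 (-1.41, limma adjusted p = 0.0153) was not called under TPM (0.0878), median-ratio (0.214) or quantile scaling (0.195), nor without heart replicate 3 (0.0653) or lung replicate 1 (0.0639).

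Of 37 ciliated-cell genes listed, 10 were in the table and 4 passed the filter, 1 of them through lung alone. All 4 were higher in lung, where 23.8% of all genes were. The count was 2 under median-ratio scaling and 3 under quantile normalization. The list's summed level was 2478 to 2827 FPKM in lung and 4461 to 5551 in brain. TPPP3, a tubulin-binding protein of cilia, was at 1.97, 9.16 and 6.61 FPKM and without a read in heart, and RFX3, a factor of ciliogenesis, at 1.69, 0.757 and 1.55 FPKM in heart and 6.62, 9.56 and 9.06 in lung. TUBA1A (-1.57) and TUBB4B (-1.20) are tubulins of many cells. Under median-ratio scaling TUBA1A (-0.87) and TUBB4B (-0.51) were not called. TUBB4B also lost its call without heart replicate 1 (0.141), heart replicate 2 (0.110), lung replicate 2 (0.133) or lung replicate 3 (0.0640).

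HOX genes record position along the body axis, and those called here belong to the groups numbered 2 to 7. Of 39 listed, 30 were in the table and 25 passed the filter; 9 were higher in lung, where 23.8% of all genes were, none in heart, and 9 were at 0 in all 6 libraries. The filter admitted 1 of the 25 through lung alone. Against brain, kidney, liver and spleen, 7 of the 25 were higher in lung and 8 lower, and the list's summed level was 916 to 966 FPKM in lung, 1952 to 2039 in kidney and 1071 to 1309.5 in aorta. HOXA5, which lung development requires, was at 1.68, 3.32 and 6.83 FPKM in heart and 675, 755 and 726 in lung (-7.32 ± 0.66 SE, limma adjusted p = 3.57e-08). HOXA2 was at 43.7, 40.6 and 43.1 FPKM in lung with no heart read (at least 25.5-fold), HOXB4 at 2.81, 6.93 and 0 in heart and 94.2, 86.5 and 78.8 in lung, and HOXA7 at 1.39, 1.38 and 0 in heart and 23.6, 33.0 and 28.8 in lung. The tissues did not overlap for these 4 genes and the lung libraries were close together. HOXB5 (-4.23) and HOXC4 (-3.33) were also higher in lung (limma adjusted p of 3.23e-06 and 3.84e-06). The count was also 9 under median-ratio and quantile scaling. Among the groups numbered 9 to 11, HOXA9, HOXA10, HOXA11, HOXB9, HOXC9, HOXC10 and HOXD11 were at 0 in both tissues. No HOX gene of these groups was called.

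Genes of lung mesenchyme and patterning were next. Of 47 listed, 32 were in the table and 25 passed the filter, 16 higher in lung and none in heart (median -1.57), where 23.8% of all genes were called higher in lung. The filter admitted 5 of the 25 through lung alone. The count was 13 under median-ratio and 11 under quantile scaling. The list's summed level was 526 to 652 FPKM in lung and 748 to 1356 in aorta. TBX2 was at 6.54, 0.808 and 4.15 FPKM in heart and 94.7, 104 and 117.3 in lung, and its relative TBX4, a factor of lung and hindlimb mesenchyme, was at 11.2, 28.2 and 19.4 in lung with no heart read (at least 28.4-fold). BMP4, a signal that patterns the distal airway, was at 33.8, 47.9 and 27.5 FPKM in heart and 253, 298 and 329 in lung (-3.003 ± 0.41 SE, limma adjusted p = 7.12e-06). These 3 genes did not overlap between the tissues. The forkhead factor FOXF2 (-3.64) had no heart read, and WNT2, which specifies lung, differed by -3.24 (limma adjusted p = 2.89e-05). LIMCH1 (-1.57, limma adjusted p = 0.00150) was not called under median-ratio (-0.95) or quantile scaling (-0.94). FZD4 was not called (-0.47).

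Vessel and blood genes leaned to lung as well, while the lean of matrix genes depended on the scaling. Of 57 endothelial genes 29 were in the table and 21 passed the filter, 14 higher in lung and none in heart (median -1.87), against 23.8% of all genes higher in lung. The filter admitted 4 of the 21 through lung alone. The count was 11 under median-ratio scaling and 9 under quantile normalization or with a pseudocount of 0.1. RAMP2, the adrenomedullin receptor partner, was at 11.5, 61.6 and 19.3 FPKM in lung with no heart read (at least 8.24-fold). BMPR2, the receptor mutated in pulmonary hypertension, was at 4.41, 4.36 and 6.603 FPKM in heart and 42.3, 47.8 and 40.4 in lung (-2.88, limma adjusted p = 1.78e-06) and KLF4 at 7.40, 8.22 and 24.4 in heart and 30.0, 123 and 115 in lung (-2.61, 0.000590). The tissues did not overlap for either, though KLF4 was not called in a fit of the 6 libraries alone (limma adjusted p = 0.0549). The caveolar coat gene CAV1 (-2.06, limma adjusted p = 0.00630) lost its call under median-ratio scaling (-1.40, 0.0603).

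Smooth muscle genes differed in direction. Of 21 listed, 10 were in the table and 6 passed the filter, 3 higher in lung and 1 in heart. Among all genes 23.8% were called higher in lung and 5.75% higher in heart. ACTG2, an actin of smooth muscle, was at 11.5, 21.5 and 13.8 FPKM in lung with no heart read, and MYH11, smooth muscle myosin, at 4.04, 2.40 and 6.15 in heart and 21.2, 13.04 and 15.2 in lung (-1.79, limma adjusted p = 0.000106). MYLK, the kinase of the myosin light chain, differed by -2.48. SMTN was higher in heart (1.44, limma adjusted p = 0.0211), and lost its call without heart replicate 1 (0.0857), lung replicate 1 (0.0926) or lung replicate 3 (0.0586). Of 51 fibroblast and matrix genes 34 were in the table and 15 passed the filter, 6 higher in lung and none in heart, against 23.8% of all genes higher in lung, and the filter admitted 3 of the 15 through lung alone. The count was 2 under quantile normalization, where 448 of all 4260 genes were called higher in lung. It was 1 under median-ratio scaling, where 500 of all genes were. Under median-ratio scaling COL1A1 (-0.78), FBLN5 (-0.83), FN1 (-1.03) and SPARC (-0.76), among others, were no longer called. FN1 also lost its call without lung replicate 2 (limma adjusted p = 0.0812). TIMP3, a protease inhibitor of the matrix, was at 19.55, 39.2 and 18.0 FPKM in heart and 72.6, 187 and 115 in lung (-2.23, limma adjusted p = 0.00170).

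Of 63 leukocyte genes 29 were in the table and 17 passed the filter, 10 higher in lung and none in heart, against 23.8% of all genes higher in lung. The filter admitted 1 of the 17 through lung alone. The count was also 10 under median-ratio scaling, 8 with 1 gene higher in heart under quantile normalization, and 5 with a pseudocount of 5. SPI1, the factor of macrophages and granulocytes, was at 18.2, 9.87 and 13.8 FPKM in heart and 131, 93.2 and 94.0 in lung (-2.86, limma adjusted p = 4.17e-05). PAX5, the B cell factor, was at 4.73, 17.4 and 14.3 in lung with no heart read (at least 37.6-fold), and LCP1, a leukocyte actin bundler, at 12.7, 18.3 and 13.3 (at least 19.7-fold). The groups were apart for all 3. Among the 12 largest lung differences outside these lists, the adhesion genes ALCAM (-6.11) and CADM1 (-5.12), the surface proteoglycan gene GPC3 (-5.35), the phosphatase gene PTPRF (-5.16), NNAT (-5.31) and CKS2 (-5.39) stood beside the factors above.

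None of 5 tested genes of the SENCR locus was called by limma in the main fit, where 3 had an unadjusted p under 0.05. Of all genes, that fit called 5.75% higher in heart and 23.8% higher in lung. For the locus, voom on recovered reads called 1 gene, FLI1. Limma called 1 higher in lung under TPM scaling, with pseudocounts of 0.1 or 5, with the filter at 5 FPKM and with the replicate block. It also called 1 without heart replicate 1 or heart replicate 3, and 2 without lung replicate 2. SENCR was at 32.5, 59.8 and 65.9 FPKM in heart and 68.4, 32.6 and 64.0 in lung, overlapping (-0.05 ± 0.59 SE, limma adjusted p = 1.00). FLI1, a factor of endothelium and blood, was at 309.8, 115 and 228 FPKM in heart and 846, 325 and 524 in lung (-1.38 ± 0.55 SE, limma adjusted p = 0.0567), with all lung libraries above all heart libraries. FLI1 passed without heart replicate 1 (0.0409) or lung replicate 2 (0.0375), and also in the fit with a replicate block described below. Replicate 2 was its lowest library in each of the 8 tissues. Overlapping reads of SENCR and FLI1 cannot be told apart without a known strand setting, and FLI1 reads of the mouse locus and of the transgene cannot be told apart either.

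Of 37 immediate early and stress genes 32 were in the table and 23 passed the filter, 8 higher in lung and none in heart (median -1.40), where 23.8% of all genes were called higher in lung, and 10 had every lung library above every heart library, against 35.6%. The summed level of the 32 ran from 196.5 to 405 FPKM in heart and from 641 to 1065 in lung. In each of the 8 tissues replicate 1 had the lowest sum and replicate 3 the highest. JUN was at 3.45, 3.41 and 8.75 FPKM in heart and 20.6, 40.8 and 52.3 in lung (-2.66, limma adjusted p = 0.00447) and the chaperone gene HSP90AA1 at 17.8, 27.5 and 50.7 in heart and 91.9, 121 and 118 in lung (-1.87, 4.57e-05). The count was 3 under median-ratio and quantile scaling, 4 without heart replicate 1 and between 6 and 11 without another heart or lung library. With a replicate block it was 11. Their part in the lung-high genes was not tested. Of 4 proliferation genes that passed the filter, MCM4 was higher in lung (-1.25, limma adjusted p = 0.0269), but not without heart replicate 2 (0.0859), heart replicate 3 (0.0678), lung replicate 1 (0.0853) or lung replicate 3 (0.0529), and not under median-ratio scaling (-0.61). Of the other chest tissue genes, EBF2 of brown fat was higher in heart (1.17, limma adjusted p = 0.00496) and STMN2 of neurons higher in lung (-2.34, 0.0172). STMN2 lost its call without heart replicate 1 (0.0732), heart replicate 2 (0.0738), lung replicate 2 (0.102) or lung replicate 3 (0.0513).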

How the data were processed

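Total RNA of 24 tissue libraries was extracted with TRIzol and prepared with a VAHTS Universal V10 kit, per the labels' protocols. Reads were processed with fastp, HISAT2 and HTSeq on the human build GRCh38.p13, versions unstated, per the submitters' processing notes; annotation and strand setting: not given in the sources used here. FPKM were deposited by the authors, and 91.4% of symbols matched a mouse symbol, ignoring case. Whole reads were recovered for 7493 genes from the FPKM steps (tolerance 1e-06). In simulated data 96.5% of 6903 genes were recovered exactly.

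limma 3.58.1 (R 4.3.3) was fitted with a mean-variance trend to log2(FPKM + 1), which understates changes of low genes, over 8 tissue means and 24 libraries; genes with 1 FPKM in 3 libraries were kept, and p-values adjusted by Benjamini-Hochberg over 4260 genes. The code was tested on simulated data. Contrasts were heart minus lung and lung minus the mean of brain, kidney, liver and spleen. Exact permutation tests were two-sided. Floors use 3 reads over the 3 libraries of a tissue; they cover counting error only, since PCR copies were not removed by molecular identifiers. The genes named are the 12 largest non-overlapping differences each way, every tested contractile and skeletal member, up to 4 abundant and up to 2 most changed members of other lists in each direction, SENCR and FLI1; 14 further examples (such as FOXA1, FGF13 and MEF2C) were chosen after their values were seen. Some genes that the rule names are not reported here. Members and lists were chosen with earlier results of these data known. Replicates correlated at 0.951 to 0.962 over genes within heart and lung. Alternatives were pseudocounts, filters, scalings, a replicate block, variance settings, no minimum difference, 6 libraries alone, each heart or lung library left out and, chosen after seeing the data, voom on recovered reads. Python 3.11.15 drew figures and summaries.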

Additional observations from a re-analysis of the deposited data

Results flagged for a closer look

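Muscle genes appeared in tissues outside the compared pair. In each case every library of the tissue lay above all 12 brain, kidney, liver and spleen libraries, and the tissue entered neither comparison. In stomach, MYH1 averaged 2.16 FPKM over 3 libraries (0.551 to 5.34, 13 reads) and MYH2 averaged 4.32 FPKM (0.558 to 11.8, 26 reads), with stomach replicate 2 the highest for both. TPM2, which smooth muscle also makes, averaged 11.3 FPKM in stomach and 23.4 FPKM in aorta. In aorta, CASQ1 averaged 4.25 FPKM (2.47 to 7.71, 10 reads) and MYOZ1 5.52 FPKM (1.85 to 11.1, 9 reads). The source of these reads was not tested.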

How the results depend on the processing

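The comparisons were repeated under 18 other settings for 186 values of single genes, and 3122 of 3313 values kept their direction and their side of the threshold, 118 lost a call, 49 gained one and 24 changed sign. No difference that changed sign was called in its own comparison, though some of these genes were called in the other. Genes called higher in heart (245) numbered 415 under median-ratio and 427 under quantile scaling, and genes higher in lung (1012) numbered 500, 448 and, with a pseudocount of 5, 607. For lung against brain, kidney, liver and spleen, higher genes (563) numbered 296 with a pseudocount of 5 and 905 with no minimum difference, and lower genes (298) numbered 454 under TPM scaling, 145 with a pseudocount of 5, 742 with no minimum difference and 570 with voom on recovered reads. Leaving out each heart or lung library gave 223 to 242, 885 to 991, 484 to 573 and 286 to 297 genes. With a replicate block the counts were 248, 1024, 564 and 300. Over all genes, deviations of same-numbered heart and lung libraries correlated at 0.0773, 0.0987 and 0.0212. Those of libraries with different numbers correlated at -0.0912 to 0.0168. The labels do not say what the numbers share, so they were not taken as pairs. Some measures did follow the number: the immediate early sum was lowest in replicate 1 and highest in replicate 3, and FLI1 lowest in replicate 2, in 8 of 8 tissues. With the block 11 immediate early genes were higher in lung, where 8 were without it, and FLI1 was called (adjusted p = 9.06e-05). Sign changes, heart minus lung, were CITED2 0.16, MEF2A 0.53, MSTN 0.042, FZD4 0.20 and SENCR 0.64 under median-ratio scaling; MEF2A 0.29, MSTN 0.39, SIX4 0.016, FZD4 0.18 and SENCR 0.50 under quantile normalization; SENCR 0.0099 under TPM scaling; and COX1 -0.39 with a pseudocount of 0.1. Leaving out each library moved MSTN between -0.64 and 0.15, SENCR between -0.39 and 0.26, ATP6 between -1.93 and 0.038 and COX1 between -0.82 and 0.85. For lung against the 4 tissues, TTN was -0.0563, CACNB1 -0.036 and PDLIM5 -0.24 under quantile normalization, CACNB1 -0.13 with a pseudocount of 5, and PDLIM5 between -0.27 and 0.50 with each library left out. The cause was not tested. Depth limits genes without a read to 3 reads' worth.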
